A study of Homo sapiens with 6 samples.

Results

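The genes described here encode the plasminogen activators and the proteins that hold or restrain them at the cell surface: PLAU, PLAUR, PLAT, SERPINE2 and LRP1. They were chosen by name. Probe sets with 1 gene symbol in the platform annotation were used, and the probe set with the highest mean deposited signal over all arrays stood for each gene, which gave 5 genes of 19775. RNA was measured on 6 arrays of U87-2M1 cells, an invasive subline of the human glioma line U87 derived in vivo by experimental metastasis to the lung and then kept in culture. In 3 samples the cells carried a baculoviral miR-10b decoy vector, and in the 3 others a baculoviral control decoy vector. A decoy is an RNA that is designed to soak up a microRNA, and a baculoviral vector is an insect virus used to carry genes into mammalian cells. Cells of both groups were at passage 4 and were maintained in hypoxia, and all came from the same subline. The labels do not say whether the replicates were separate cultures, so the spread behind each p-value may be technical.

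Plasminogen is a circulating zymogen that is cut into plasmin, a protease that digests fibrin and matrix proteins and activates several metalloproteases. The cutting is done by urokinase (uPA, the product of PLAU) or by tissue plasminogen activator (tPA, the product of PLAT). The urokinase receptor uPAR, the product of PLAUR, is a membrane protein held by a lipid anchor, which keeps urokinase at the cell surface. Protease nexin-1, the product of SERPINE2, is a serpin that inhibits urokinase, tissue plasminogen activator and thrombin. LRP1 is a large endocytic receptor of the LDL receptor family that clears complexes of proteases and serpins. In glioma, urokinase and its receptor are known for their part in invasion, and HOXD10, a homeobox gene reported as a target of miR-10b, has been reported to repress the receptor. The comparison asks how the RNA of these genes differed between cells with a decoy against miR-10b and cells with the control decoy. Whether the decoy bound the microRNA was not measured here.

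Urokinase and its receptor moved in opposite directions, so the start-site regions of both genes are shown. Each window runs from 250 bases before to 50 bases after a RefSeq start site in GRCh38.p14. The motifs TGANTCA (N being any base) and GGGCGG were searched on both strands, and their matches are in capitals. TGANTCA takes in the sites of AP-1 factors such as JUN, and GGGCGG is bound by Sp1. No 2 matches overlapped.
PLAU (chr10:73910882-73911181, plus strand): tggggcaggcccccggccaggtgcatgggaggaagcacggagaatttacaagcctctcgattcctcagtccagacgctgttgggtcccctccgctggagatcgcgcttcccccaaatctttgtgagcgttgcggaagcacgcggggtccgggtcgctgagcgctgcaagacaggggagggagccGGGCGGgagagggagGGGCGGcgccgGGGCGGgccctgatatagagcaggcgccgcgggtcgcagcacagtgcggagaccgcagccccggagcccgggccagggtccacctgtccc
PLAUR (chr19:43670120-43670419, minus strand): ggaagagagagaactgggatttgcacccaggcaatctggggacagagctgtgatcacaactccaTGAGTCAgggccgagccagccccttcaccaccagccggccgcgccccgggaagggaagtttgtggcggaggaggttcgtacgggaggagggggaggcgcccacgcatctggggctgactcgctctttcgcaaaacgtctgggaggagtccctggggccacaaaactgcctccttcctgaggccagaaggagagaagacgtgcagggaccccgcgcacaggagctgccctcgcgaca
This PLAU window held 3 GGGCGG matches and 0 TGANTCA matches, whereas the PLAUR window held 1 TGANTCA match and 0 GGGCGG matches. The other PLAU window in the table held neither. Of 35116 windows of the same length, 7.71% held TGANTCA and 45.0% held GGGCGG. The SERPINE2 windows held 1 and 2 GGGCGG matches and the LRP1 window held 1, with 0 TGANTCA matches in each. A match is only a run of letters in the window, and bases further from the start site were not searched. The part of these motifs in the RNA differences was not tested.

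All values below are MAS5 signals after quantile normalisation of log2(signal + 7), and a log2 difference is the miR-10b decoy mean minus the control decoy mean. Normalisation was used because control decoy replicate 3 was brighter than the rest. Its 2% trimmed mean of deposited signals was 192, against 155 to 163 for the 3 miR-10b decoy arrays and 159 and 161 for the 2 other control decoy arrays. The median log2 difference of the 13842 genes tested was -0.02, against -0.14 for the signals as deposited. Of these genes, 34.0% passed limma's test at an adjusted p under 0.05, 16.6% higher (2298 genes) and 17.4% lower (2402 genes) with the miR-10b decoy. That split moved to 2861 higher and 1740 lower after median centring and to 1094 higher and 2561 lower for the signals as deposited. Pearson's r over the tested genes was 0.985 to 0.987 for 2 arrays of the same group and 0.967 to 0.973 across groups. The mesenchymal genes VIM (9896 ± 98.9 in miR-10b decoy cells and 9901 ± 101 in control decoy cells, SD, n = 3 each) and CD44 (means of 7543 in miR-10b decoy cells and 7490 in control decoy cells) were bright. Of the other markers of a glioma or mesenchymal line, nestin (NES) was lower at -0.38 (adjusted p = 0.00775), SOX2 had -0.44 (adjusted p = 0.374), and the glial markers GFAP, S100B and OLIG2 lay under the filter level, a mean deposited signal of 15.6 over all arrays. OLIG2 averaged 23.0 ± 5.88 in miR-10b decoy cells and 4.59 ± 3.51 in control decoy cells (SD, n = 3 each). That difference was not tested. Of 3 endothelial markers, CDH5 and VWF lay under the filter level and PECAM1 was lower at -0.40 (adjusted p = 0.0135). Their summed signal was 112 to 118 in miR-10b decoy cells and 141 to 164 in control decoy cells, whereas the sums of the leukocyte, epithelial and lung markers overlapped between the groups. The ratio of 3' to 5' actin signal, which reflects RNA integrity, was 8.54 ± 1.77 in miR-10b decoy cells and 5.73 ± 0.474 in control decoy cells (SD, n = 3 each, exact permutation p = 0.1, the lowest that 3 against 3 can give). The part of these markers and of this ratio in the results below was not tested. The same ratio for GAPDH was 0.943 ± 0.00747 and 0.945 ± 0.0192 in these groups.

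Of the 5 genes, PLAU, PLAT and SERPINE2 were lower with the miR-10b decoy, PLAUR was higher and LRP1 did not pass the test. All 5 passed the filter on low signal. The shifts were small, and a call was common among all genes on these arrays. The arrays of the groups did not overlap for the 4 genes called, nor for 46.4% of the genes tested. In these bulk samples, fewer cells with a transcript and less of it per cell cannot be told apart.

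PLAU had signals of 6935, 6801 and 6648 in miR-10b decoy cells, against 7780, 7836 and 7822 in control decoy cells. All 3 decoy arrays lay below all 3 control arrays, as in 24.1% of the genes tested. PLAU, which encodes urokinase, averaged 6795 ± 143 in miR-10b decoy cells and 7813 ± 28.8 in control decoy cells (SD, n = 3 each). It fell by 13.0%, a log2 difference of -0.20 (SE 0.04, 95% interval -0.28 to -0.12, limma adjusted p = 0.001). By size this was an ordinary difference here, since 29.9% of the genes tested lay further down. The second PLAU probe set had signals of 2180, 2228 and 2220 in miR-10b decoy cells, against 2723, 3222 and 2891 in control decoy cells. Its log2 difference was -0.41 (SE 0.06, adjusted p = 5.7e-04 among 26260 probe sets), so both probe sets of the gene were lower. The log2 difference of the gene was -0.34 for the signals as deposited and -0.31 when both probe sets were averaged. The call of the first missed the threshold without the intensity trend (adjusted p = 0.0508).

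PLAUR, which encodes the urokinase receptor, had signals of 1958, 2056 and 1927 in miR-10b decoy cells, against 1695, 1660 and 1757 in control decoy cells. Every decoy array lay above every control array, as in 22.3% of the genes tested. The means were 1980 ± 67.2 in miR-10b decoy cells and 1704 ± 49.0 in control decoy cells (SD, n = 3 each), a rise of 16.1% (log2 difference 0.22, SE 0.05, 95% interval 0.10 to 0.33, limma adjusted p = 0.00718). A larger rise was seen in 25.0% of the genes tested. The 2 other PLAUR probe sets were also higher, with log2 differences of 0.33 (SE 0.06, adjusted p = 0.00163) and 0.24 (SE 0.07, adjusted p = 0.0344). The second had signals of 1429, 1347 and 1340 in miR-10b decoy cells, against 1131, 1079 and 1055 in control decoy cells, and the third had 999, 910 and 829 in miR-10b decoy cells, against 772, 757 and 781 in control decoy cells. After normalisation the groups did not overlap on any of the 3. In the signals as deposited they overlapped on the first and the third. The third then had 954, 910 and 790 in miR-10b decoy cells, against 742, 741 and 908 in control decoy cells.

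The PLAUR call rested on the scaling of 1 array. In the signals as deposited PLAUR had 1860, 2029 and 1803 in miR-10b decoy cells, against 1635, 1638 and 2097 in control decoy cells, the last being the bright control decoy replicate 3. On that scale its log2 difference was 0.09 (adjusted p = 0.642). It was 0.21 (adjusted p = 0.0387) on the same scale without control decoy replicate 3, an alternative added after the data were seen. The call also ended without the intensity trend (adjusted p = 0.0541).

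PLAT, which encodes tissue plasminogen activator, had signals of 138, 132 and 121 in miR-10b decoy cells, against 171, 191 and 167 in control decoy cells. The groups did not overlap. The means were 131 ± 8.50 in miR-10b decoy cells and 176 ± 13.1 in control decoy cells (SD, n = 3 each). PLAT fell by 25.0%, a log2 difference of -0.41 (SE 0.11, 95% interval -0.65 to -0.18, limma adjusted p = 0.0108), with 13.5% of the genes tested further down. It has 1 probe set, so no second one checks it. Its call ended without control decoy replicate 2, the highest of its control arrays (log2 difference -0.36, adjusted p = 0.0528).

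SERPINE2, which encodes the inhibitor protease nexin-1, had signals of 4115, 4285 and 4410 in miR-10b decoy cells, against 4520, 4601 and 5017 in control decoy cells. The groups did not overlap, but the highest decoy array and the lowest control array lay close together. The means were 4270 ± 148 in miR-10b decoy cells and 4713 ± 267 in control decoy cells (SD, n = 3 each). SERPINE2 fell by 9.33% (log2 difference -0.14, SE 0.05, 95% interval -0.25 to -0.03, limma adjusted p = 0.0449). This call was fragile: under 20 other settings the gene stayed past the threshold in 9, with the same sign in all 20. Leaving out miR-10b decoy replicate 1 or 2 or control decoy replicate 2 or 3 ended it (adjusted p = 0.141, 0.104, 0.0759 and 0.142). The second SERPINE2 probe set was near the floor, at 16.0, 3.14 and 30.4 in miR-10b decoy cells and 24.6, 14.0 and 9.42 in control decoy cells, and says little about the gene.

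LRP1, the clearance receptor, had signals of 303, 293 and 219 in miR-10b decoy cells, against 388, 310 and 276 in control decoy cells. The groups overlapped, with means of 271 ± 45.8 in miR-10b decoy cells and 325 ± 57.3 in control decoy cells (SD, n = 3 each). The log2 difference was -0.25 (SE 0.14, limma adjusted p = 0.198), with a 95% interval from -0.56 to 0.06. A fall of the size of the PLAT one therefore lies within its interval, as does no change. The value was -0.11 without miR-10b decoy replicate 3, -0.12 without control decoy replicate 1 and -0.36 without control decoy replicate 3. Averaging all 4 of its probe sets gave -0.07, and median centring gave -0.17. For the signals as deposited the value was -0.34 (limma adjusted p = 0.0648). On that scale the groups did not overlap, at 288, 294 and 208 in miR-10b decoy cells against 377, 304 and 317 in control decoy cells. The second LRP1 probe set had 167, 129 and 112 in miR-10b decoy cells and 199, 108 and 163 in control decoy cells, a log2 difference of -0.18 (SE 0.20, adjusted p = 0.569). The other 2 LRP1 probe sets lay under the filter level.

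**Figure D1:**
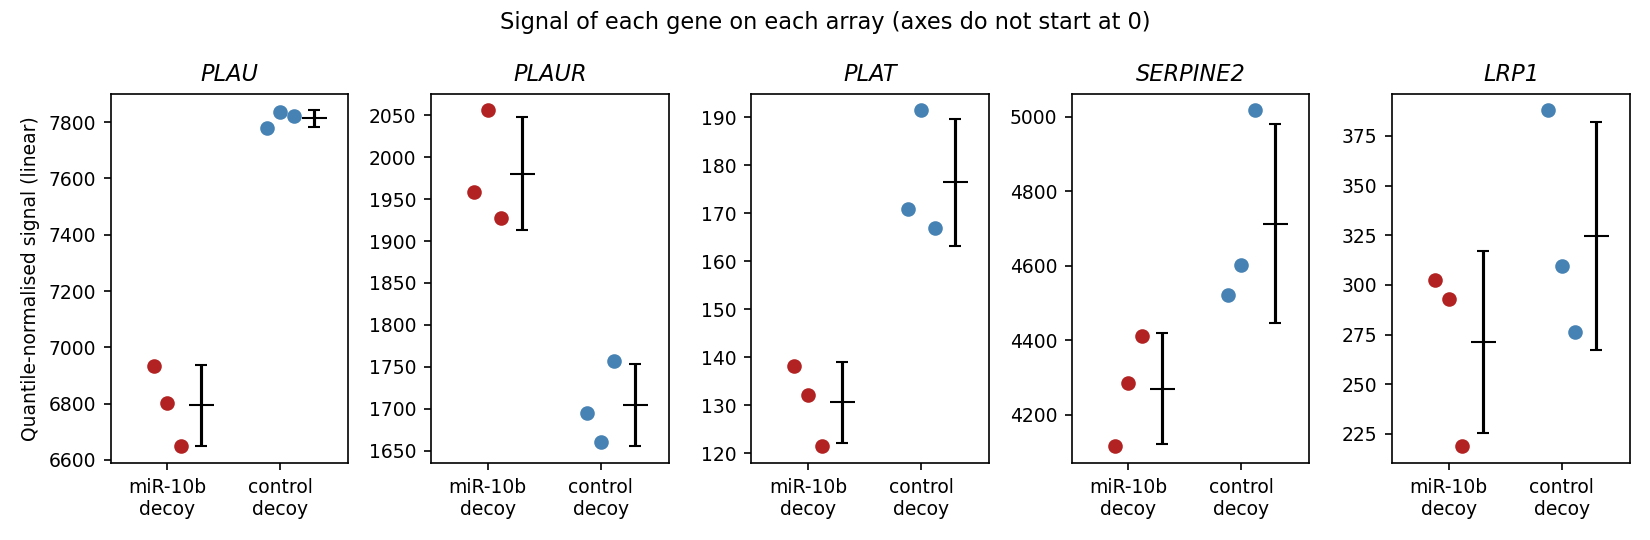
Quantile-normalised signal (linear) of each gene on each array, miR-10b decoy in red on the left and control decoy in blue on the right, with the mean and SD of 3 arrays beside the points; the axes do not start at 0. PLAU, PLAT and SERPINE2 lie lower in every miR-10b decoy array than in any control decoy array, PLAUR lies higher, and the LRP1 points overlap.

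**Figure D2:**
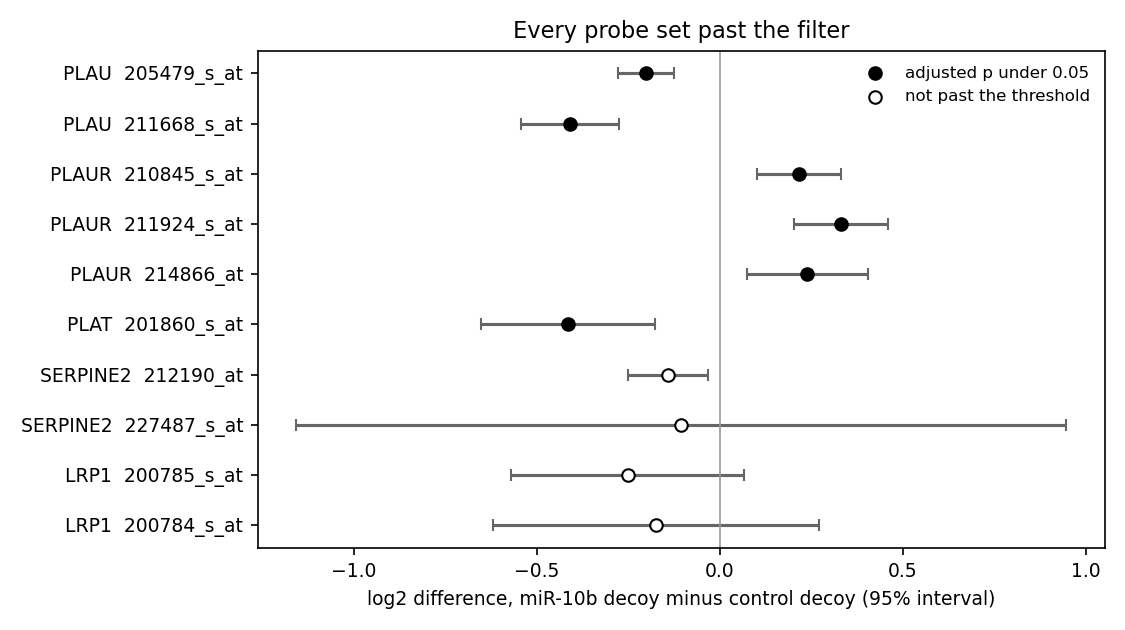
Log2 difference of each of the 10 probe sets past the filter, miR-10b decoy minus control decoy, with its 95% interval from the fit over 26260 probe sets; filled points have an adjusted p under 0.05. Both PLAU probe sets and the PLAT probe set lie below 0 and all 3 PLAUR probe sets above 0, whereas neither SERPINE2 probe set passes when every probe set is tested by itself (adjusted p = 0.0558 for the brighter).

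The ratio of receptor to ligand within an array does not change when all deposited signals of that array are multiplied by a common factor. Quantile normalisation is not such a factor, and the ratios below were taken on the signals before it. The log2 ratio of the deposited PLAUR signal over the deposited PLAU signal, set relative to the control decoy mean, was 0.38, 0.52 and 0.39 in miR-10b decoy cells, against -0.003, -0.03 and 0.04 in control decoy cells. The ratio was thus higher on every decoy array by 0.43 on average (SD 0.08 in miR-10b decoy cells and 0.03 in control decoy cells, exact permutation p = 0.1 two-sided, 0.25 after Benjamini-Hochberg adjustment over 10 pairs of the 5 genes). With 3 arrays against 3 no smaller p than 0.1 was possible. The same shift lay between 0.43 and 0.80 over the 6 pairings of a PLAUR with a PLAU probe set, and the groups did not overlap in any of them. These pairings reuse the same probe sets and arrays, which had already separated in opposite directions after normalisation. They are therefore not independent checks.

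Set against urokinase, the inhibitor overlapped between the groups, and set against the receptor it did not. SERPINE2 over PLAU was -0.06, 0.04 and 0.10 in miR-10b decoy cells, against -0.06, -0.02 and 0.08 in control decoy cells, a difference of 0.03 (exact permutation p = 0.7). SERPINE2 over PLAUR was -0.44, -0.47 and -0.29 in miR-10b decoy cells, against -0.06, 0.01 and 0.05 in control decoy cells, a difference of -0.40 (exact permutation p = 0.1). PLAT over PLAUR differed by -0.64 and PLAT over PLAU by -0.21 on the log2 scale, without overlap (exact permutation p = 0.1 each). Ratios with LRP1 overlapped between the groups in each of its 4 pairs. The p-values of these ratios cannot pass in this design, and the ratios give no level of one transcript against another.

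**Figure D3:**
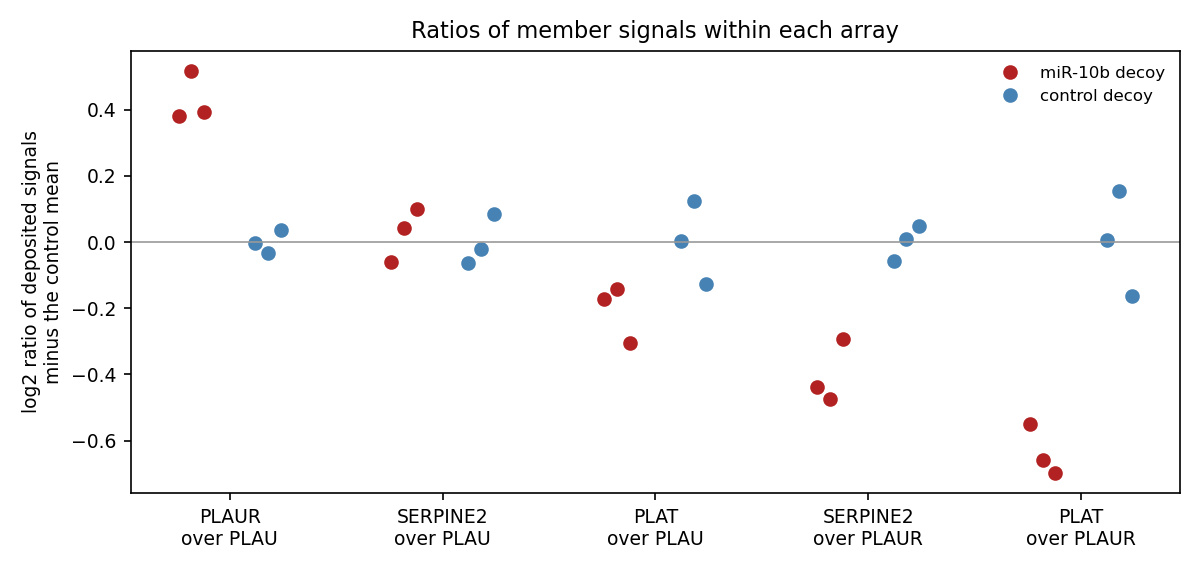
Log2 ratio of the deposited signals of 2 genes on each array, minus the mean of the 3 control decoy arrays, with miR-10b decoy in red on the left of each pair and control decoy in blue on the right. PLAUR over PLAU is higher in the 3 miR-10b decoy arrays (0.38 to 0.52), SERPINE2 over PLAU overlaps, and SERPINE2 and PLAT over PLAUR are lower in every miR-10b decoy array.

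HOXD10 had signals of 55.5, 67.2 and 69.3 in miR-10b decoy cells, against 16.5, 20.5 and 22.4 in control decoy cells. It rose, with a log2 difference of 1.41 (SE 0.21, limma adjusted p = 3.55e-04). The control signals lay close to the filter level, and the size depended on the offset, at 1.65 with an offset of 1 and 0.71 with an offset of 50. On these arrays PLAUR and a reported repressor of it were both higher. Its 2 further probe sets were too dim to pass the filter, and the call ended with the mean of all 3 (0.44, adjusted p = 0.119).

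The rest of the plasminogen system was described with 7 lists of 71 genes, of which 54 could be tested, 13 lay under the filter level and 4 had no probe set with 1 symbol. Of the 54, 12 were higher, 17 were lower and 25 did not pass, beside 34.0% of all genes called. Their median log2 difference was -0.11, against -0.02 over all genes tested. By list the medians were -0.06 for surface proteins that bind plasminogen, -0.71 for the 2 other inhibitors tested, -0.14 for ligands and partners of the urokinase receptor, -0.18 for the LDL receptor family, -0.13 for substrates, -0.12 for thrombin and coagulation control and 0.04 for regulators. The lower count was 12 without control decoy replicate 2 and 8 when variances were not moderated.

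Plasminogen itself (PLG) lay under the filter level as a mean over all arrays. PLG averaged 19.3 ± 3.66 in miR-10b decoy cells and 11.4 ± 6.09 in control decoy cells (SD, n = 3 each), a difference that was not tested. Of 4 tested surface proteins that bind it, the glycolytic enzyme ENO1 was lower at -0.19 (adjusted p = 0.00239). That call ended without the intensity trend (adjusted p = 0.0707) and with the mean of all ENO1 probe sets (adjusted p = 0.442). The annexin ANXA2 had -0.09 (adjusted p = 0.0912) and its partner S100A10 had -0.02 (adjusted p = 0.76). The plasminogen receptor PLGRKT had 0.21 (adjusted p = 0.0789), and it passed upward after median centring (adjusted p = 0.0157) and without control decoy replicate 3 (adjusted p = 0.0103), where ANXA2 passed downward (adjusted p = 0.0465). Among other inhibitors, SERPINI1 (neuroserpin), a neuronal inhibitor of tissue plasminogen activator, averaged 163 ± 19.4 in miR-10b decoy cells and 332 ± 29.0 in control decoy cells (SD, n = 3 each), a log2 difference of -0.995 (SE 0.11, limma adjusted p = 4.07e-05). SERPINI1 lay far down, with 1.05% of the genes tested below it. A2M, a broad protease inhibitor that LRP1 clears, had -0.42 (adjusted p = 0.226), with -0.26 without miR-10b decoy replicate 3 and the opposite sign, 0.15, when all its probe sets were averaged. The 4 other inhibitors measured lay under the filter level.

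Among 13 tested ligands and membrane partners of the urokinase receptor, 2 were higher and 4 lower, beside 34.0% of all genes called. FPR1, a formyl peptide receptor that the cleaved urokinase receptor can engage, rose by 0.64 on the log2 scale (SE 0.10, adjusted p = 3.77e-04), and IGF2R, a receptor that binds uPAR, rose by 0.30 (adjusted p = 5.55e-04). Averaging all probe sets of a gene ended both calls (adjusted p = 0.161 for FPR1 and 0.248 for IGF2R), and that of IGF2R also for the signals as deposited (0.15, adjusted p = 0.425). The caveolar protein CAV1 fell by 0.43 on the log2 scale (adjusted p = 1.34e-05). Its signal averaged 6119 ± 120 in miR-10b decoy cells and 8224 ± 325 in control decoy cells (SD, n = 3 each). The 3 other lower genes were the integrin chains ITGA3, ITGA5 and ITGAV, at -0.38, -0.44 and -0.20 (adjusted p = 0.0112, 0.027 and 0.0095). The ITGA5 arrays of the groups overlapped. Without the intensity trend, and again when variances were not moderated, CAV1 was the only lower gene of this list. The 3 integrin calls thus ended in both. With control decoy replicate 2 left out, 2 genes of the list were lower.

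Of 8 tested genes of the LDL receptor family and its processing, 2 were lower and 0 higher, beside 34.0% of all genes called. The 2 lower genes were LRP8, a receptor for reelin, at -0.23 (adjusted p = 0.0373) and LRPAP1, the chaperone that keeps LRP1 from binding ligands during its folding, at -0.24 (adjusted p = 0.0474). LRP1B, a relative of LRP1, had -0.44 (adjusted p = 0.209) near the floor and passed without the intensity trend (adjusted p = 0.0308). Leaving out any array but miR-10b decoy replicate 2 ended the LRP8 call, at adjusted p from 0.0508 to 0.118. Leaving out any array but miR-10b decoy replicate 1 ended the LRPAP1 call, at adjusted p from 0.0723 to 0.145. Both also ended under the 3 other scalings, at adjusted p from 0.0656 to 0.24. Averaging all probe sets of a gene left LRP8 at -0.035 (adjusted p = 0.715) and LRPAP1 at -0.038 (adjusted p = 0.812), and the LRPAP1 call ended with the replicate block (adjusted p = 0.0508).

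Substrates of plasmin or its activators went both ways, with 4 higher and 5 lower of 11 tested, beside 34.0% of all genes called. Higher were the collagenase MMP1 at 0.66 (adjusted p = 3.93e-06), the membrane metalloprotease MMP14 at 0.68 (adjusted p = 6.13e-05), MMP3 (stromelysin) at 0.54 and PDGFC, a growth factor that tissue plasminogen activator can cleave, at 0.32. Lower were the thrombin receptor F2R at -0.77 (adjusted p = 5.44e-05), HGF at -0.49, the latent TGF-beta binding protein LTBP1 at -0.48, the gelatinase MMP2 at -0.33 and fibronectin (FN1) at -0.13. F2R averaged 385 ± 32.6 in miR-10b decoy cells and 660 ± 51.3 in control decoy cells (SD, n = 3 each), and the groups did not overlap.

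In the thrombin and coagulation list, 2 of 6 tested genes were higher and 3 lower, beside 34.0% of all genes called. THBD, the thrombin-binding protein thrombomodulin, rose by 0.46 (adjusted p = 6.52e-04) and SERPIND1, heparin cofactor II, by 0.32 (adjusted p = 0.0107). TFPI, an inhibitor of the tissue factor pathway, was lower at -0.39 (adjusted p = 3.19e-04), the protein C receptor PROCR at -0.32 (adjusted p = 0.00138) and tissue factor (F3) at -0.26 (adjusted p = 0.00422). Among 10 reported regulators of urokinase or its receptor, HOXD10, JUN, ETS2 and RELA were higher and SMAD3 was lower, beside 34.0% of all genes. The AP-1 subunit JUN averaged 4334 ± 176 in miR-10b decoy cells and 2843 ± 134 in control decoy cells (SD, n = 3 each), a log2 difference of 0.61 (SE 0.05, limma adjusted p = 5.5e-06). ETS2 rose by 0.56 (adjusted p = 1.25e-04, and 0.0661 with the mean of all its probe sets) and RELA, an NF-kB subunit, by 0.45 (adjusted p = 7.75e-04), whereas SMAD3 of the TGF-beta pathway had -0.57 (adjusted p = 8.4e-05). FOSL1, FOS, SP1 and HIF1A had differences between -0.07 and 0.07 and did not pass.

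**Figure D4:**
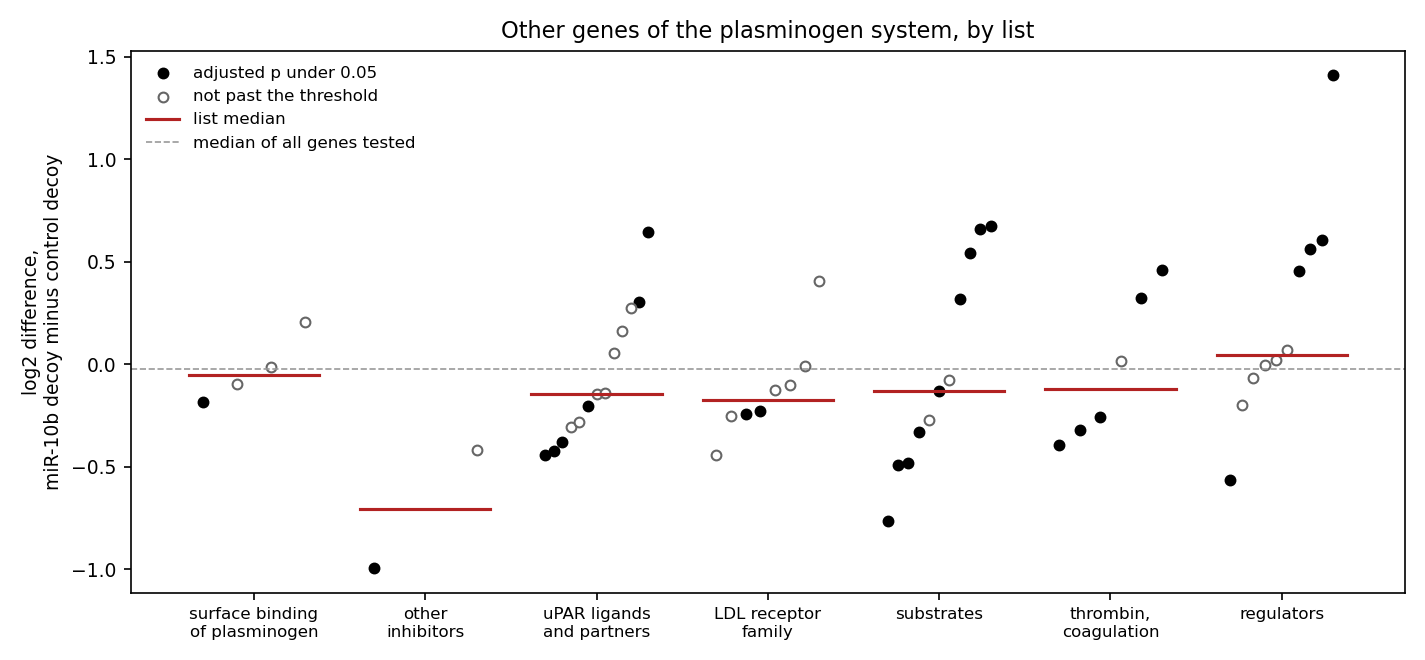
Log2 difference of each tested gene of the 7 lists, miR-10b decoy minus control decoy, with the list median in red and the median of all genes tested (-0.02) as a dashed line; filled points have an adjusted p under 0.05. Substrates, regulators, the ligands and partners of the urokinase receptor, and the thrombin and coagulation list hold filled points on both sides of 0. HOXD10 (1.41) is the highest point.

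The genes whose pattern over the 6 arrays was most like that of each member were named as a description, with Pearson's r of normalised log2 values. They were TMEM54 and PTN for PLAU (r = 0.999 each), LYPLAL1-AS1 and CGRRF1 for PLAUR (0.998 and 0.997), NTAN1 and ARHGAP44 for PLAT (0.999 each), CBLN2 and AQP3 for SERPINE2 (0.993 and 0.991), and P3H3 and ATXN2L for LRP1 (0.992 and 0.984). Many genes came close: r was over 0.95 for 855 genes with PLAU, 404 with PLAT, 280 with PLAUR, 77 with SERPINE2 and 19 with LRP1. All points share the same 6 arrays and the same split into 2 groups.

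**Figure D5:**
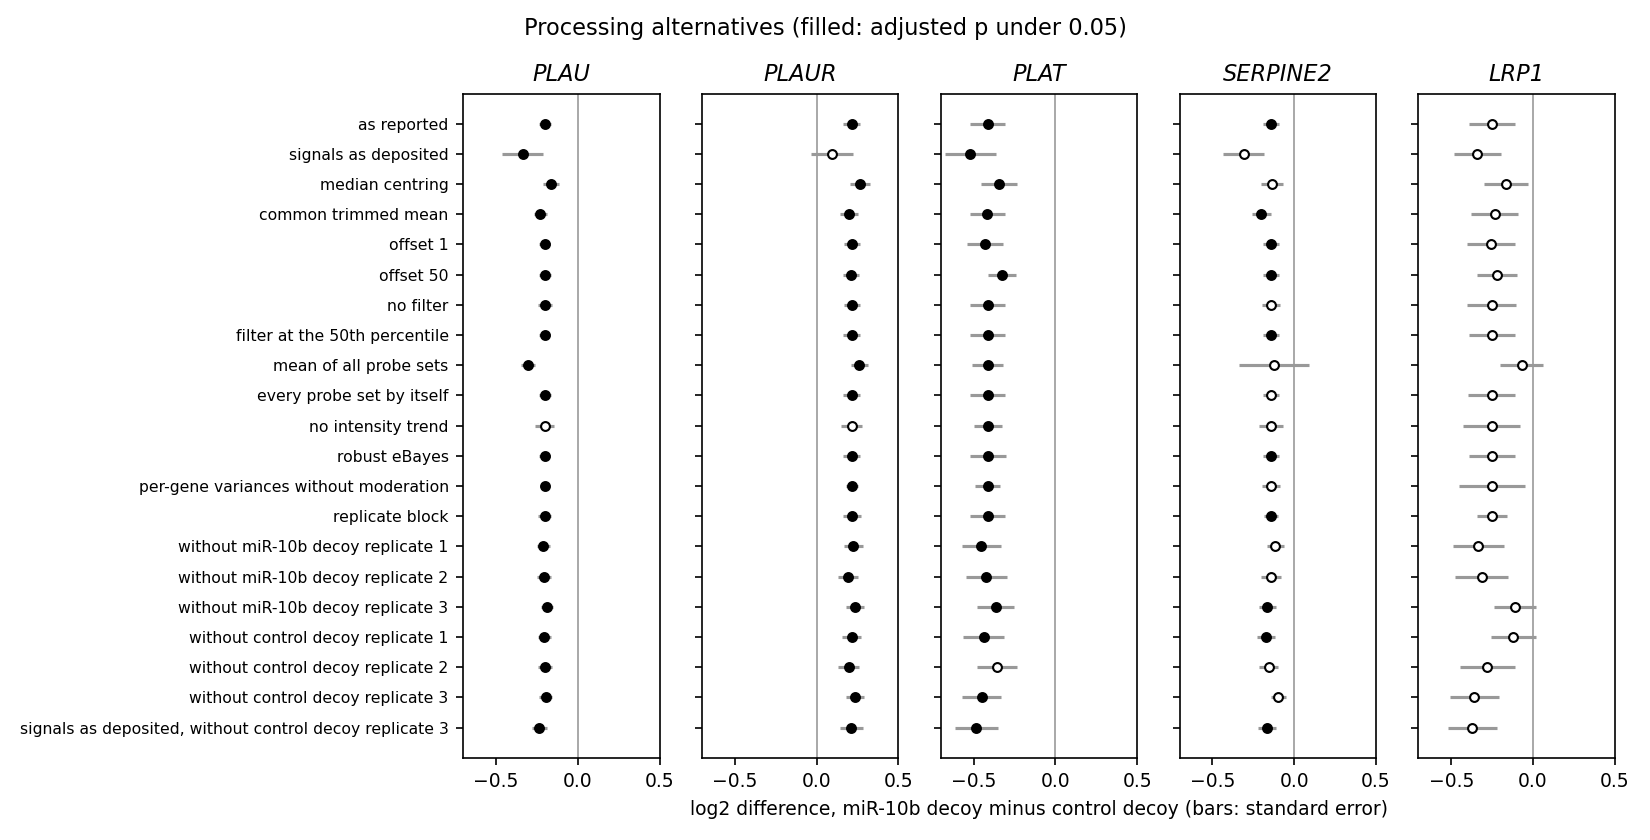
Log2 difference of each gene, miR-10b decoy minus control decoy, as reported and under 20 alternatives, with standard errors as bars; filled points have an adjusted p under 0.05. Signs stay the same throughout, PLAU and PLAT are past the threshold in 19 of 20 alternatives, PLAUR in 18, SERPINE2 in 9 and LRP1 in 0.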

How the data were processed

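The authors deposited linear MAS5 signal intensities, 1 for each of 54675 probe sets on 6 arrays, MAS5 being the tool in the submitters' processing notes. No version or scaling target of MAS5 is given in the labels, and no detection calls were used. Biotinylated cRNA came from 0.25 µg of total RNA, per the labels' protocols. The number of arrays limits the precision.

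Symbols came from the platform annotation. Of the 41091 probe sets with 1 symbol, 41037 matched a RefSeq gene (GRCh38.p14) by Entrez identifier and 0 symbols needed an update. Signals were turned into log2(signal + 7), which understates changes of dim genes, and quantile-normalised. Genes under the 30th percentile of mean deposited signal were left out, which left 13842. Groups were compared with limma 3.58.1 in R 4.3.3 (lmFit, eBayes with an intensity trend, two-sided, Benjamini-Hochberg adjustment, threshold 0.05), with 7.68 prior and 4 residual degrees of freedom. The code was checked on simulated data with known changes, all of them larger than those of the members. Most of the largest of these were recovered. Rates for the smaller ones and of false calls are not given here. The simulation started from normalised values, so it did not check the normalisation or changes as small as the members'. Other scalings, offsets, filters, probe set rules and variance models, a replicate block and each array left out were tried. The named genes were the members, HOXD10, up to 3 of each list by smallest p and the 2 most alike to each member. Other list genes past the threshold, and those named as not passing, were chosen after their values were seen. Members, lists and the quantile normalisation were chosen with earlier results of these data known.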

Additional observations from a re-analysis of the deposited data

How the results depend on the processing

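Under the 20 alternatives no member changed sign. For the signals as deposited, 1094 genes were higher, 0 members were higher, and PLAUR (0.092, adjusted p = 0.642) and SERPINE2 (-0.31, adjusted p = 0.0571) missed the threshold. SERPINE2 also missed it, at -0.14 each, after median centring (adjusted p = 0.137), without a filter (adjusted p = 0.103) and with every probe set by itself (adjusted p = 0.0558). With the mean of all probe sets, which for SERPINE2 takes in a probe set near the floor, 1462 genes were higher and 1574 lower, 7 list genes were higher, and SERPINE2 had -0.12 (adjusted p = 0.728). With every probe set by itself 3552 probe sets were higher and 3719 lower, more features being tested. Without the intensity trend 0 members were higher and 1 was lower, 10 list genes were lower, and PLAU (-0.20, adjusted p = 0.0508), PLAUR (0.22, adjusted p = 0.0541) and SERPINE2 (-0.14, adjusted p = 0.198) missed the threshold. With per-gene variances without moderation 1451 genes were higher and 1379 lower, 8 list genes were lower, and SERPINE2 had -0.14 (adjusted p = 0.154). With 1 array left out at a time, 1 to 3 members were lower, LRP1 had -0.36 to -0.11, PLAT -0.45 to -0.36 and SERPINE2 -0.17 to -0.10 (adjusted p from 0.0352 to 0.142). For PLAUR, 1 added alternative left out the bright control decoy replicate 3. Beyond that, what moved these results was not tested. Deviations of same-numbered arrays from their group means correlated over all genes tested with r of 0.03, -0.03 and -0.01. This cannot show whether same-numbered arrays shared a culture or day, which the labels do not say. With the replicate block no member's call changed (PLAU -0.20, PLAUR 0.22, PLAT -0.41, SERPINE2 -0.14 and LRP1 -0.25, adjusted p = 0.0632 for LRP1), and 2222 genes were higher and 2336 lower. Signals near the floor limit what PLG, LRP1B, A2M and the size of the HOXD10 difference can show.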
